A study of Mus musculus with 2 samples.

Results

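The mouse proteasome genes described here are those whose symbol in the platform annotation is Psma, Psmb, Psmc, Psmd, Psme, Psmf or Psmg followed by a number, with Psmb8 and Psmb9 left out. The rule found 45 genes on 79 probes, of 19057 named genes and 45281 probes in all, and 0 probes for the inhibitor gene Psmf1. They were 17 genes of the core particle, 17 of the regulatory particle, 4 activators, 4 chaperones that assemble the core and 3 that assemble the regulatory particle. The study set osteoclasts, the multinucleated cells that resorb bone, against macrophages, both grown from bone marrow of the tibia and femurs of C57BL/6J mice aged 8 to 12 weeks. Osteoclasts had 4 days with M-CSF (macrophage colony-stimulating factor, 25 ng/ml) and then 3 days with M-CSF at the same dose and soluble RANKL (30 ng/ml), the signal for osteoclasts to form. Macrophages had M-CSF at 25 ng/ml and no RANKL. Each sample stood for 3 mice and was read on 1 Illumina bead array, whose probes each give a brightness, the intensity. The labels do not say whether macrophages were collected before or after the 3 further days.

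The proteasome degrades proteins that carry ubiquitin. Its core particle is a barrel of 2 outer rings of alpha subunits and 2 inner rings of beta subunits, of which a few cut proteins. The regulatory particle caps the barrel: its base holds a ring of ATPases that unfold substrates, and its lid takes ubiquitin off. Interferon replaces the cutting subunits with inducible ones, which form the immunoproteasome, and raises an activator made of Psme1 and Psme2 that can cap the barrel in place of the regulatory particle. In osteoclast precursors the proteasome removes the inhibitors of NF-kappaB downstream of RANKL, and drugs that block it restrain osteoclast formation.

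Each cell type had 1 array and no replicate, so differences are given as values, with no test. The arrays came from different chips, so chip and cell type cannot be told apart. A probe counted as detected where its intensity passed the upper 0.01 point of a normal background estimated from each array, at 7.27 for osteoclasts and 4.25 for macrophages. The median intensity of all probes was 7.84 on the osteoclast array and 3.90 on the macrophage array, so the osteoclast array was brighter before normalization. Differences are osteoclasts minus macrophages on the log2(background-corrected intensity + 16) scale after quantile normalization, which understates the change of dim genes. The median difference of all 13143 genes detected on at least 1 array was -0.06, and it was 0.64 higher without normalization and 0.17 lower (a shift of -0.17) with median scaling. The cell labels were checked on markers. All 8 osteoclast markers, among them Ctsk and Acp5, were higher in the osteoclast sample, with a summed intensity of 97709 in osteoclasts and 660.7 in macrophages. The 6 macrophage markers summed to 10891 in osteoclasts and 22534 in macrophages. Markers of other cells differed too: those of muscle summed to 9925 in osteoclasts and 54.9 in macrophages, and those of epidermis to 18136 in osteoclasts and 109.5 in macrophages. Fibroblast markers summed to 1920 in osteoclasts and 37.1 in macrophages, and Dcn alone gave 1600 of the osteoclast sum. Of these 6 markers 4 were at least 2-fold higher in osteoclasts after normalization (background 11.4%), while Col1a2 differed by 0.27 and Pdgfra by -0.155. Dividing-cell markers summed to 9993 in osteoclasts and 476.6 in macrophages, and granulocyte markers to 873 in osteoclasts and 48914 in macrophages. All these sums are of intensities before normalization. Of the 8 muscle markers 4 were detected in macrophages (Acta1, Ckm, Myh4 and Pvalb were not), of the 7 epidermal ones only Krt10 was, and Mpo and Retnlg of the 9 granulocyte markers were not detected in osteoclasts. The part of these cells in the differences below was not tested.

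Most proteasome genes differed little between the osteoclast and the macrophage sample, with a slight lean upward. Of the 45 genes, 40 were detected on at least 1 array and 39 on both. Of the 40, 25 (62.5%) lay within 1.5-fold, as did 59.0% of all detected genes. At least 2-fold higher in osteoclasts were 4 genes (10% of the 40, against a background of 11.4% of all detected genes): the core chaperones Psmg1 and Psmg2, the cutting subunit Psmb5 and, just past the limit, Psmd2 of the base. At least 2-fold lower was 1 gene, Psmb10 (2.50% against a background of 8.13%). These shares are near or below the background. At least 1.5-fold higher were 11 genes (27.5%, background 20.7%) and at least 1.5-fold lower were 4 (10%, background 20.3%). Differences above 0 were found for 31 of the 40 genes (77.5%, background 46.9%), for 27 with median scaling and for 37 without normalization. The background above 0 was not computed for these 2 scalings. Above the median of all detected genes were 32 of the 40, and 33 both with median scaling and without normalization. The median of the 40 was 0.31 (1.24-fold), which was 0.37 above the median of all detected genes, and 0.42 above it both with median scaling and without normalization. Among the 31 members with an intensity above 200 on both arrays, 8 were at least 1.5-fold higher (25.8%, against 17.5% of 3951 such genes) and 3 were lower (9.68%, against 24.3%). In bulk RNA, fewer cells of a type and less RNA per cell cannot be told apart.

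**Figure D1:**
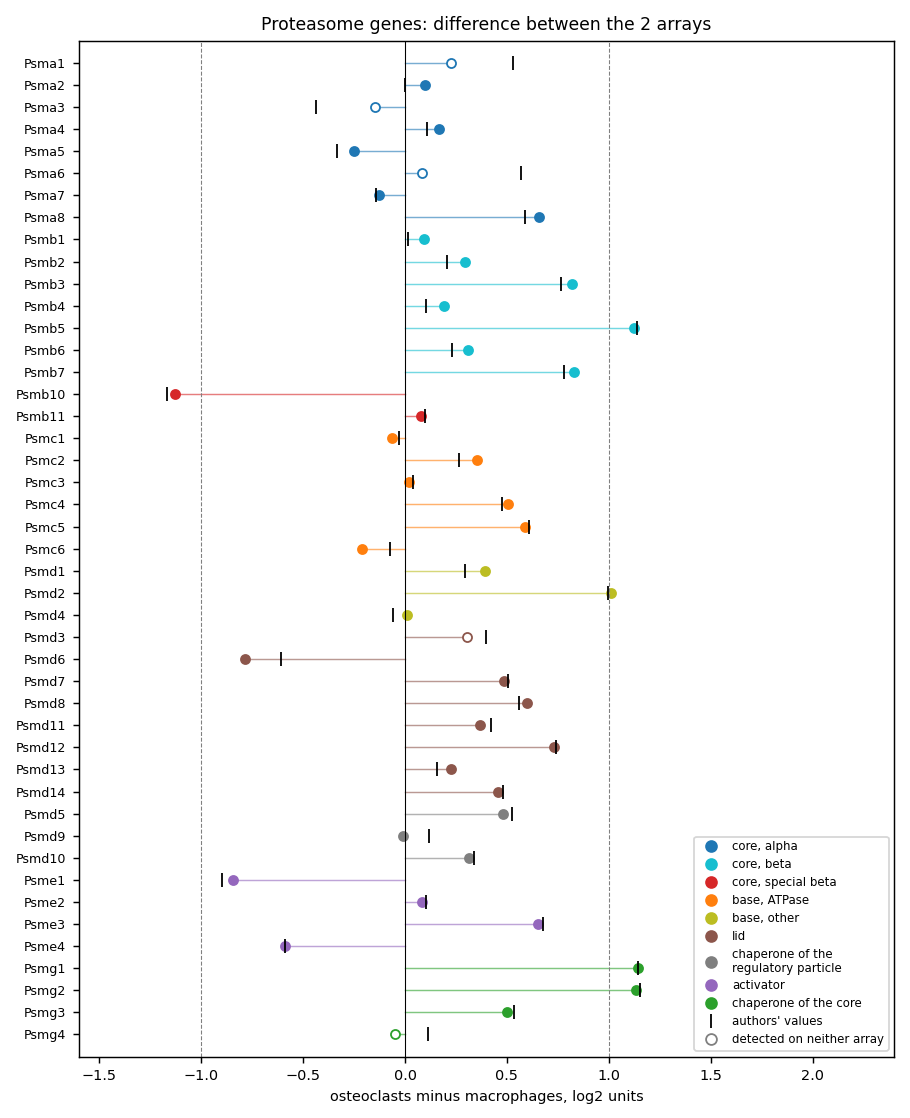
Difference between the osteoclast and the macrophage array for each of the 45 genes (osteoclasts minus macrophages, log2 units after quantile normalization), coloured by place in the complex, with ticks for the authors' processed values and dashed lines at 2-fold. Most genes lie between 0 and 1, Psmg1, Psmg2, Psmb5 and Psmd2 lie right of the upper line and Psmb10 left of the lower one; open circles mark genes detected on neither array, and Psma8 was detected on the osteoclast array only.

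The alpha subunits, which build the outer rings and gate the entry to the barrel, hardly differed. Psma2 had an intensity of 11329 in osteoclasts and 6753 in macrophages, a difference of 0.10 after normalization. Psma4 had 5006 in osteoclasts and 2754 in macrophages (0.17). Both differences were close to 0. Psma5 had 7841 in osteoclasts and 5905 in macrophages (-0.25), and a second, much dimmer probe of it differed by 0.46. Psma7 had 3318 in osteoclasts and 2167 in macrophages (-0.13, and -0.03 at its other probe). The raw intensities of all 4 genes were higher on the osteoclast array, and without normalization their differences were 0.41 to 0.86. Psma8, an alpha subunit of the testis, was dim but detected in osteoclasts (28.8) and not detected in macrophages (4.19), which after quantile normalization gives at least 1.57-fold higher in osteoclasts. Its second probe had 10.2 in osteoclasts and -2.94 in macrophages, or at least 1.045-fold higher. The size depends on the setting, since the difference of the first probe was 0.66 as normalized here, 0.24 with median scaling and 0.33 with an offset of 50 in place of 16. Probes of Psma1, Psma3 and Psma6 were not well above background in either sample, so these genes allow no statement here.

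All 7 constitutive beta subunits were higher in osteoclasts after quantile normalization (background 46.9% above 0). They lay between 0.09 and 1.13 with a median of 0.31. With median scaling 6 of the 7 were, the exception being Psmb1 at -0.05. The subunits that cut proteins were not alike. Psmb5, which carries the chymotrypsin-like activity that bortezomib blocks, had an intensity of 2252 in osteoclasts and 583 in macrophages, or 2.18-fold higher after normalization. This gene was read by 1 probe only. Psmb7, which carries the trypsin-like activity, had 6511 in osteoclasts and 2243 in macrophages (1.77-fold higher). Its 4 probes gave differences of 0.71 to 0.91. Psmb6, which carries the caspase-like activity, had 5950 in osteoclasts and 3010 in macrophages (1.24-fold, and 1.45-fold at its other probe). Psmb6 was thus within 1.5-fold while Psmb5 was past 2-fold. Among the subunits that do not cut, Psmb3 had 6784 in osteoclasts and 2361 in macrophages (1.76-fold higher). Psmb2 had 7656 in osteoclasts and 3955 in macrophages, a difference of 0.29, with 0.33 at a second detected probe. Psmb4 (9781 in osteoclasts, 5432 in macrophages) differed by 0.19 and Psmb1 (5097 in osteoclasts, 2998 in macrophages) by 0.09, so these 2 stayed close to 0. RefSeq lists pseudogenes of Psma5, Psmb5, Psmb6 and Psmb7, and whether the probes also read these copies was not tested.

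Among the genes described here, with Psmb8 and Psmb9 left out, 1 beta subunit was inducible, Psmb10, and it went the other way. The immunoproteasome as a whole was thus not read. Psmb10 takes the place of Psmb7 in the immunoproteasome. It had an intensity of 2818 in osteoclasts and 3780 in macrophages at its brighter probe, and 2242 in osteoclasts and 3209 in macrophages at the other. After normalization the probes were 2.19-fold and 2.36-fold lower in osteoclasts. Psmb10 was lower before normalization too, with a difference of -0.42 at the brighter probe and -0.51 at the other. The ratio of osteoclasts to macrophages was 3.88 times higher for Psmb7 than for Psmb10, and 3.86 times without normalization. For Psmb5 the ratio was 4.77 times that of Psmb10 and for Psmb6 2.71 times. These ratios set each probe against itself in the other array, and their own error is unknown. Psmb11, the cutting subunit of thymic epithelium, was barely above the limits, at 12.1 in osteoclasts and 5.03 in macrophages. Its difference was 0.08 after quantile normalization, -0.39 with median scaling and 0.42 without normalization, so it has no settled direction here.

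**Figure D2:**
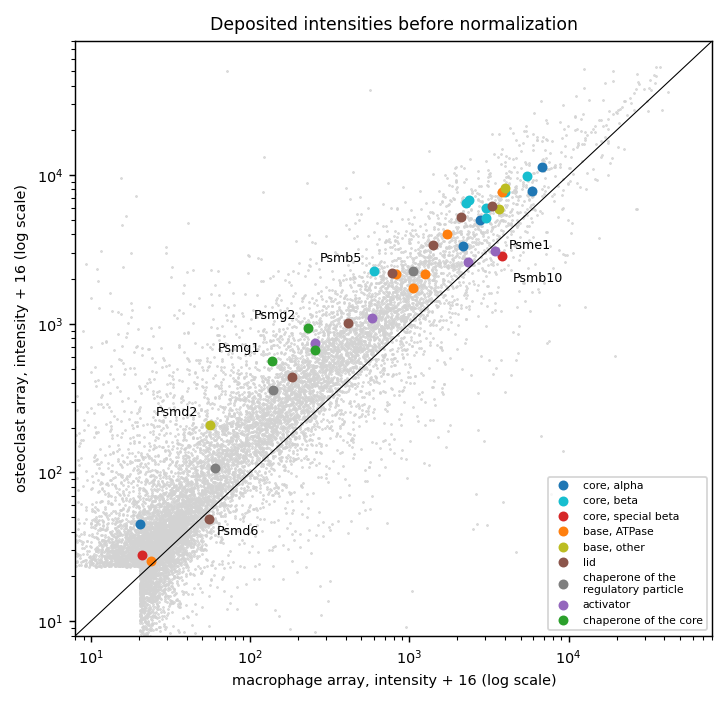
Deposited intensity plus 16 on the osteoclast array (vertical axis) against the macrophage array (horizontal axis), both on log scales, for the detected proteasome genes (coloured) and all detected genes (grey; values below the axes are not drawn), with the line of equal intensity. Nearly all proteasome genes lie above the line, as most grey points do, whereas Psmb10 (2818 in osteoclasts, 3780 in macrophages), Psme1 and Psmd6 lie below it.

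In the regulatory particle, 16 of 17 genes were detected, all on both arrays. Their median was 0.38 (1.30-fold higher in osteoclasts). Above 0 were 13 (81.2%, background 46.9%), or 11 with median scaling and 15 without normalization. At least 2-fold higher was 1 (6.25%, background 11.4%). At least 1.5-fold higher were 4 (25%, background 20.7%) and at least 1.5-fold lower was 1 (6.25%, background 20.3%). The shares at 2-fold and 1.5-fold are near or below the background. The ATPases of the base, which thread the substrate into the core, had a median of 0.19. Psmc5 had an intensity of 2128 in osteoclasts and 810.2 in macrophages (1.51-fold higher, and 1.56-fold at its other probe). Psmc4 had 4015 in osteoclasts and 1705 in macrophages, a difference of 0.51. Psmc2 followed with 7662 in osteoclasts and 3789 in macrophages (0.35, and 0.33 at its other probe). Psmc3 lay near 0 at 0.02 (2160 in osteoclasts, 1238 in macrophages), as did Psmc1 at -0.07 (1724 in osteoclasts, 1032 in macrophages). Without normalization they were at 0.79 and 0.73. The barely detected Psmc6 was at -0.21 (9.46 in osteoclasts, 7.96 in macrophages), at -0.67 with median scaling, which is past 1.5-fold lower, and at 0.14 without normalization, so its direction turned with the scaling.

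The base also holds Psmd1 and Psmd2, the large scaffolds that dock ubiquitin receptors and shuttles, and the ubiquitin receptor Psmd4. Psmd2 had an intensity of 192.7 in osteoclasts and 39.9 in macrophages, or 2.02-fold higher, and a difference of 0.997 in the authors' deposited table. Its other probe, at 72.5 in osteoclasts and 34.0 in macrophages, differed by 0.04, so this call rests on 1 of 2 probes. Psmd1 had 8123 in osteoclasts and 3943 in macrophages (0.39), with 0.36 and 0.89 at its other probes. Psmd4 had 5849 in osteoclasts and 3630 in macrophages (0.01), or -0.12 with median scaling.

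Of the lid, 7 of 8 genes were detected and 6 were above 0 (85.7%, background 46.9%), with a median of 0.46. Psmd12, a lid scaffold, had an intensity of 2194 in osteoclasts and 759.6 in macrophages (1.66-fold higher). A dimmer probe of Psmd12 gave 107 in osteoclasts and 75.7 in macrophages and a difference of -0.45, 1.18 log2 units away, the largest gap between probes of any member. Psmd8 had 5233 in osteoclasts and 2103 in macrophages (1.51-fold higher), and its near-background probe differed by -0.12. Psmd14, the deubiquitinase of the lid, had 990.9 in osteoclasts and 394.8 in macrophages (0.46), and its probes differed by 0.02 (0.46 and 0.44). The lid genes Psmd7 (3373 in osteoclasts, 1398 in macrophages), Psmd11 (423.5 in osteoclasts, 166.9 in macrophages) and Psmd13 (6171 in osteoclasts, 3294 in macrophages) differed by 0.49, 0.37 and 0.23. The exception was Psmd6, another scaffold of the lid, which was dim and 1.72-fold lower in osteoclasts, with 33.0 in osteoclasts and 39.5 in macrophages. Its second probe, detected in macrophages only, was at least 1.16-fold lower in osteoclasts. Psmd3 was not well above background in either sample.

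Set side by side, the core particle had a median difference of 0.18 over 14 detected genes and the regulatory particle 0.38 over 16. Leaving out Psmb10 and Psmb11 brought the core to 0.24. The ranges overlapped almost entirely, from -1.13 to 1.13 in the core and from -0.79 to 1.01 in the regulatory particle, and genes of 1 pair of arrays are not replicates, so no difference between the particles was shown. The core median was below that of the regulatory particle under each of 11 alternative settings, with a gap between -0.28 and -0.05. These settings reuse the same arrays and are not independent. A looser detection limit and the probe brightest on the macrophage array repeated the gap of -0.20. Median scaling and no normalization give the same gap (-0.28) by construction. Without Psmb10 and Psmb11 the gap of -0.14 turned to 0.02 when the probes of a gene were averaged.

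**Figure D3:**
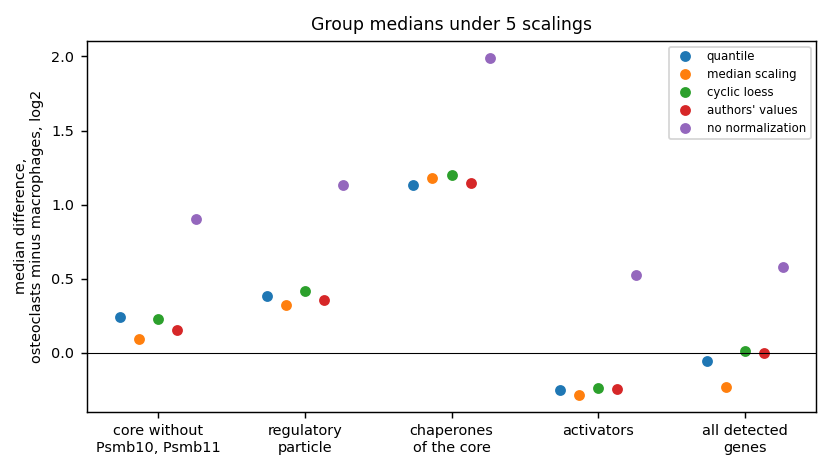
Median difference (osteoclasts minus macrophages, log2 units) of 4 gene groups and of all detected genes under 5 scalings of the arrays. Without normalization every group moves up, and under each scaling the chaperones of the core lie highest and the activators lowest of the 4 groups.

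The 3 detected Psmg chaperones, which build the core, had the highest median of the groups, here and under the 4 other scalings drawn. Psmg1 and Psmg2 form a pair that starts the alpha ring. Psmg1 had an intensity of 546.5 in osteoclasts and 121.7 in macrophages, or 2.21-fold higher. Psmg2 had 914.9 in osteoclasts and 215.4 in macrophages (2.19-fold higher), and its other probes differed by 1.31 and 0.85. All 3 probes of Psmg2 were thus higher, whereas Psmg1 was read by 1 probe only. Psmg3, of a second pair of such chaperones, had 650.3 in osteoclasts and 238.7 in macrophages (1.41-fold higher), while its partner Psmg4 was not well above background in either sample. The median of the 3 detected genes was 1.13, 1.18 with median scaling and 1.14 in the authors' deposited table. With the undetected Psmg4 kept in, this median was 0.82. The core assembly factor Pomp, which has no Psm symbol and is not in this group, differed by 0.08. Chaperones that build the base were closer to 0. Psmd5 had 345.0 in osteoclasts and 123.5 in macrophages (0.48). Psmd10, also known as gankyrin, had 2249 in osteoclasts and 1040 in macrophages (0.32), with 0.49 and 0.79 at its other probes. Psmd9 had 91.8 in osteoclasts and 44.3 in macrophages (-0.01, and 0.01 with median scaling). Dividing-cell markers, with a median of 3.39, were higher in the same sample, and their part in the chaperone differences was not tested.

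Of the 4 activators, 1 was at least 1.5-fold higher in osteoclasts (background 20.7%), 2 were at least 1.5-fold lower (background 20.3%) and 1 was within 1.5-fold, too few genes to read against the background. Psme1, the alpha chain of the interferon-induced activator, had an intensity of 3075 in osteoclasts and 3422 in macrophages (a difference of -0.85), and its other probe was 2.04-fold lower in osteoclasts. Without normalization these differences were -0.15 and -0.29. Psme2, the beta chain of the same ring, had 1069 in osteoclasts and 566.6 in macrophages, a difference of 0.085. The chains of 1 ring thus differed in opposite directions, Psme2 by little; RefSeq also lists a near copy, Psme2b, and whether the Psme2 probe reads it was not tested. Psme3, which forms a nuclear activator of its own, had 723.7 in osteoclasts and 240.1 in macrophages (1.57-fold higher). Psme4, a large single-chain activator, had 2582 in osteoclasts and 2313 in macrophages (a difference of -0.59, and -0.29 at a dim second probe), and without normalization it was 0.16 higher in osteoclasts. The osteoclast to macrophage ratio of Psme3 was 2.82 times that of Psme1, or 3.18 times without normalization.

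Interferon-inducible genes, read as context for Psmb10 and Psme1, were lower in osteoclasts. After quantile normalization 12 of 12 detected genes had differences below 0, with a median of -1.98. At least 2-fold lower were 10 of them (background 8.13%). Without normalization Tapbp was at 0.05 and Erap1, detected in macrophages only, at 0.002. Irf1, a transcription factor of the interferon response, had 2780 in osteoclasts and 4442 in macrophages (2.61-fold lower in osteoclasts). The guanylate-binding protein gene Gbp2 differed by -3.65 and Ifit2 by -4.28. The differences of Psmb10 and Psme1, -1.13 and -0.85, were smaller than the median of this list, and Psme2 did not go with it. Granulocyte markers were lower in the same sample, by a median of -6.34. The part of granulocytes and of interferon in the difference of Psmb10 was not tested.

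**Figure D4:**
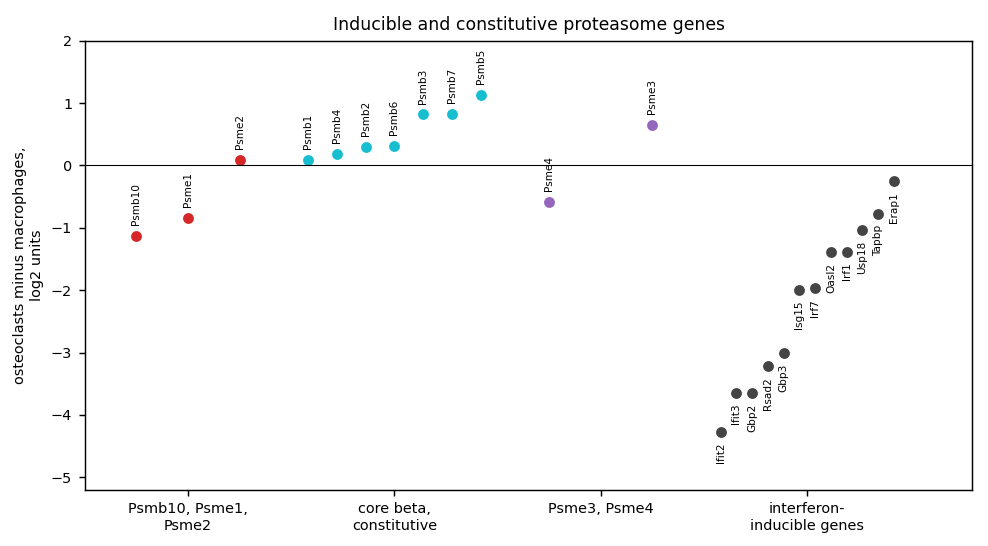
Difference between osteoclasts and macrophages (log2 units after quantile normalization), 1 point per gene. Shown are Psmb10, Psme1 and Psme2, the constitutive beta subunits, the other activators and the detected interferon-inducible genes. The 7 constitutive beta subunits lie above 0, Psmb10 and Psme1 below 0, and all 12 interferon-inducible genes below 0.

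Of the members, 26 had several probes and 19 had 1 probe, Psmb5 and Psmg1 among the latter. For 20 genes at least 2 probes were detected on both arrays; the differences of 17 had 1 sign, and for 15 they spanned at most 0.5 log2 units, with a median span of 0.26. Only Psmd12 spanned over 1 log2 unit. The genes whose probes disagreed in sign were Psma5, Psmd8 and Psmd12, in each case with a dim second probe.

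**Figure D5:**
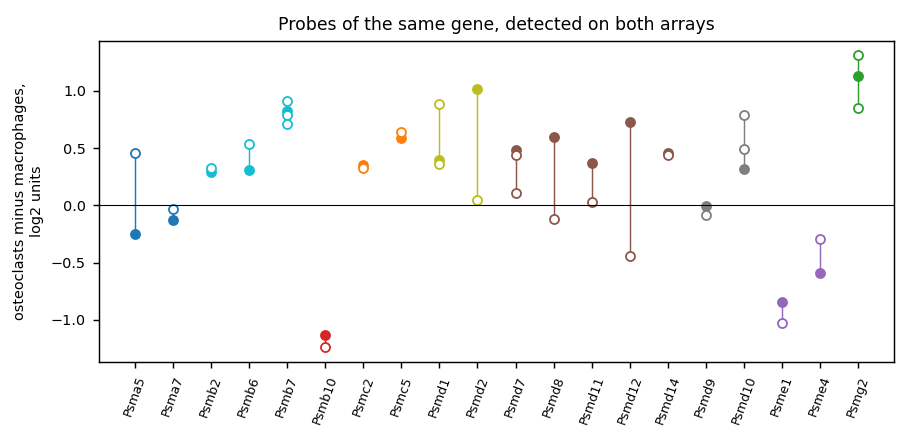
Difference between osteoclasts and macrophages (log2 units) at each probe of the 20 genes with at least 2 probes detected on both arrays; filled points are the probes that stand for the gene, lines join probes of 1 gene. The probes of Psmb7 and Psmb10 lie close together on opposite sides of 0, whereas those of Psmd12 span 1.18 log2 units.

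In the authors' deposited table, also on a log2 scale, the median difference of the 40 detected members was 0.25. Of these, 3 were at least 2-fold higher (background 11.6%) and 1 at least 2-fold lower (background 7.24%): Psmg2 at 1.15, Psmg1 at 1.14 and Psmb5 at 1.14, and Psmb10 at -1.17. Median scaling gave 4 higher (background 9.93%) and 1 lower (background 13.9%). Without normalization 20 were at least 2-fold higher (background 29.0%) and 0 were lower (background 2.86%). Cyclic loess, another scaling, also gave 4 higher and 1 lower (background not computed). Among these scalings only leaving normalization out moved the count of higher members by over 1.5 times.

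Of the other proteins that work with the proteasome, 2 lists had medians above 0 and 1 did not. Of 8 detected proteasome-bound factors without a Psm symbol, 4 were at least 1.5-fold higher (background 20.7%) and 0 lower (background 20.3%), with a median of 0.42. Ublcp1, a phosphatase of nuclear proteasomes, had 816.5 in osteoclasts and 158.8 in macrophages (2.59-fold higher). The deubiquitinases Uchl5 and Usp14, which bind the base, were 1.88-fold and 1.68-fold higher, and Zfand2a was 1.66-fold higher. The lid subunit Sem1 differed by -0.20 and the core assembly factor Pomp by 0.08. Ubiquitin shuttles and partners of the segregase Vcp had 8 detected genes, all above 0 (background 46.9%), with a median of 0.44; Faf1 was 1.77-fold higher and Ubqln1 1.49-fold higher, and Vcp itself differed by 0.23. Of the factors around Nfe2l1, the transcription factor that raises proteasome genes when the proteasome is blocked, 6 were detected, 3 above and 3 below 0, with a median of -0.14; 0 reached 1.5-fold higher and 1 was at least 1.5-fold lower. Nfe2l1 differed by 0.55, while Nfe2l2, the related factor of the oxidant response, was 1.71-fold lower, or 0.08 higher without normalization. Keap1, which marks Nfe2l2 for degradation, differed by -0.55. For scale, the mitochondrial ribosomal proteins had a median of 0.52 over 73 detected genes and the cytosolic ones -0.10 over 53; the difference between these families and the proteasome was not tested.

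Promoter sequences were set beside these values. RefSeq (build GRCm38.p6) gave the 250 bases before the start of 37 of the 45 genes. The motif CCGGAAG, bound by Ets factors and searched on both strands, was present in 12 of the 37 promoters (32.4%), against 7.83% of 27025 genes. It was in 8 of 14 promoters of the regulatory particle (57.1%) and 1 of 13 of the core (7.69%). No share was computed for genes of like expression or like base content, so the share of all genes is the only background here. The 8 regulatory particle genes are shown with up to 30 bases on either side, 5′ to 3′ along the gene, with the motif or its reverse complement CTTCCGG in capitals, so that its context and its distance from the start can be compared.
Psmc1 (chr12:100110144-100110201, + strand): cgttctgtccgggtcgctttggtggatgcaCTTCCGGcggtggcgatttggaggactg
Psmc2 (chr5:21785161-21785227, + strand): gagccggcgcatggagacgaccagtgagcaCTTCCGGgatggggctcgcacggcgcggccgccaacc
Psmc2, other start (chr5:21786693-21786746, + strand): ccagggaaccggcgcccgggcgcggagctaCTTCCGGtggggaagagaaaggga
Psmc6 (chr14:45329694-45329760, + strand): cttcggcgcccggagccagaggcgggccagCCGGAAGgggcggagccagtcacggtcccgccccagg
Psmd2 (chr16:20651596-20651651, + strand): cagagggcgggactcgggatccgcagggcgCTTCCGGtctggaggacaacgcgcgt
Psmd4 (chr3:95042703-95042769, - strand): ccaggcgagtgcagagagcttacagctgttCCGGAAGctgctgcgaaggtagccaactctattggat
Psmd6 (chr14:14120954-14121020, - strand): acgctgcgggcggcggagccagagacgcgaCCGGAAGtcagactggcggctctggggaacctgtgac
Psmd11 (chr11:80428574-80428614, + strand): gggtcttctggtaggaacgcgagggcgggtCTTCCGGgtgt
Psmd12 (chr11:107479481-107479527, + strand): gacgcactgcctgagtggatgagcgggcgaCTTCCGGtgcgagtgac
In 6 of these 9 stretches the motif stood in reverse, and it lay between 11 and 125 bases before the start. The 8 genes shown ranged from -0.79 (the dim Psmd6) to 1.01 (Psmd2, whose other probe differed by 0.04) in their difference. Their signs were mixed, but the lowest values, of Psmd6 and the barely detected Psmc6 (-0.21), rest on little signal. Whether the motif goes with a direction was not tested. The core of the antioxidant response element, TGACNNNGC, to which Nfe2l1 and Nfe2l2 bind, was in 5 of 37 promoters (13.5%, all genes 11.5%): Psmb5, Psmb6, Psmc6, Psmd12 and Psmd9. The NF-Y box CCAAT was in 13 (35.1%, all genes 37.5%). The Stat-type motif TTCNNNGAA was in 1, that of Psmg1 (2.70%, all genes 8.13%). A match is only a run of letters and not a bound site.

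The promoters of the core genes past 2-fold in either direction and of Psmg1 are given in full for the 250 bases before the start, with matches to any of the 4 motifs in capitals.
Psmb5 (chr14:54617996-54618245, - strand): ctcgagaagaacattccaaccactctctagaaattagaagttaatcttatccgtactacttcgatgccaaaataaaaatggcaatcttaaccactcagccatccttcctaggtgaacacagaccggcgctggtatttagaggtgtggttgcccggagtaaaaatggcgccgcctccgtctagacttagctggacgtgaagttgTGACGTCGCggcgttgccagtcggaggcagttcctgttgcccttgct
Psmb10 (chr8:105938393-105938642, - strand): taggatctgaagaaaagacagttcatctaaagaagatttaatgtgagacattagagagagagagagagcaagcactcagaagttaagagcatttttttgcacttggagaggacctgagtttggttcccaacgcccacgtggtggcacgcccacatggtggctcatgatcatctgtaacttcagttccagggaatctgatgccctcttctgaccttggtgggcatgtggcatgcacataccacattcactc
Psmg1 (chr16:95990961-95991210, - strand): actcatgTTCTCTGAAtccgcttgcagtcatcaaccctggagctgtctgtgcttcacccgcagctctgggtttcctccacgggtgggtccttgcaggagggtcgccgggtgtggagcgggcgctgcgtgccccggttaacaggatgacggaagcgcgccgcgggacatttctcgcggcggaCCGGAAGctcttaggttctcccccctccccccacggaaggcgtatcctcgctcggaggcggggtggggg
In Psmb5 the capitals mark TGACNNNGC, 47 bases before the start. In Psmg1 they mark TTCNNNGAA and CCGGAAG, 243 and 69 bases before the start. The Psmb10 window held none of the 4 motifs (0), which says only that these letters are not in this window. On the RefSeq map Psmb5 and Psmb11 are neighbours, and Psme1 and Psme2 have 1 gene between them. Psmb11 was barely above the detection limits, so the first pair allows no comparison. In the second pair Psme1 differed by -0.85 and Psme2 by 0.085, or by -0.15 and 0.89 without normalization.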

How the data were processed

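The authors deposited linear, non-normalized intensities. Values below 0 (36.9% of the osteoclast array, 38.4% of the macrophage array) show that a background had been subtracted. The authors' deposited processed values are on a log2 scale: their column difference tracked the log2 intensity ratio (slope 0.97 over 5844 probes brighter than 200 on each array). How the authors normalized is not given in the sources used. From the intensities, a background mode and spread were estimated per array (-5.32, SD 5.41 in osteoclasts; -3.94, SD 3.52 in macrophages), limma's normexp correction was applied (limma 3.58.1, R 4.3.3), 16 was added and arrays were quantile normalized. Detection p-values and control probes were not used here. The calculation was tested on simulated data. Later steps used Python 3.11.15, numpy 2.4.6 and pandas 2.3.3.

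The platform annotation named 34885 probes with 1 gene, 18 with several and 10378 with none; 34807 Entrez identifiers matched RefSeq (GRCm38.p6) and 0 symbols changed. A gene was read by the probe of highest mean signal. A gene detected on 1 array has a bound, set against its own dim value or the lowest detected signal there, whichever is higher. Every gene of the symbol rule was accounted for, and up to 4 per group were described first. Of other lists, genes at least 2-fold apart or the 2 largest were named; others were chosen after their values were seen, as were the motif TTCNNNGAA and the intensity limit of 200. The members and lists were chosen with earlier results of these data known. No test was run, and 11 alternatives were tried. The number of arrays limits the precision.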

Additional observations from a re-analysis of the deposited data

How the results depend on the processing

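Of 132 values (12 results under 11 alternatives), 121 counted as unmoved, 10 moved and 1 turned direction. Unmoved means the same direction and a shift below 1.5-fold (0.585 log2 units), or for counts by no more than 1.5 times. That limit is larger than the medians of all members (0.31), the core (0.18) and the regulatory particle (0.38), so it is loose for them. A looser detection limit and the probe brightest on the macrophage array returned all 12 results unchanged. Shares of all genes at 1.5-fold were computed only for the setting used in the sections above. Without normalization between arrays, 20 members were at least 2-fold higher in osteoclasts (background 29.0%) and 0 lower (background 2.86%). At 1.5-fold, 33 were higher and 0 lower without normalization. The median of all detected genes also rose there, by 0.64. The medians there were 0.996 for all members, 0.85 for the core, 1.13 for the regulatory particle and 1.99 for the core chaperones, and Psme4 turned to 0.16. With an offset of 50, 2 members were at least 1.5-fold lower. Averaging the detected probes of a gene left 7 members at least 1.5-fold higher and turned the gap between the core without Psmb10 and Psmb11 and the regulatory particle to 0.018. The cause was not tested. The gap between Psmb7 and Psmb10 stayed between 1.94 and 1.99, and that between Psme3 and Psme1 between 1.44 and 1.67, over the 11 alternatives. Settings that change only the detection limit or filter cannot move such a gap. Median scaling and no normalization differ by a constant per array, so they give the same gap (1.950 and 1.671). The narrow spans were thus partly fixed in advance. No paired analysis was possible because each group had 1 array. No replicate could be left out for the same reason, and genes near background (Psma8, Psmb11, Psmc6, Psmd6) rest on little signal.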
